A study of Mus musculus with 24 samples.

Results

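Grafts of CT26.WT, a mouse colon carcinoma line that arose in the Balb/c strain, were compared between immunocompetent Balb/c hosts on a methionine-restricted diet and Balb/c hosts on a high-methionine diet. The comparison takes the libraries numbered 13 to 18 (0.172% methionine) and 19 to 24 (0.86% methionine), which are 12 of the 24 RNA-seq libraries of the study. Libraries 19 and 23 were near-identical, as were libraries 20 and 24, so the mean of each pair stood for 1 tumour. This left 6 restricted and 4 high-methionine tumours, 10 of 22 in all. All hosts of both groups are labelled male and wild type and were fed their diet for 3 to 4 weeks. The other 12 libraries came from grafts of the same line in immunodeficient NSG hosts and entered the test only through the shared estimate of spread and, at the end, as a comparison of hosts. Every tumour comes from 1 transplanted line, and graft and host cells were sequenced together. Whether every library is from its own mouse is not stated, so p-values here measure library-to-library spread, part of which may be technical.

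Methionine is an essential amino acid that starts protein synthesis and, as S-adenosylmethionine, donates the methyl groups of DNA, RNA, histones and many small molecules. After donating its methyl group it becomes homocysteine, which is either methylated back to methionine with folate or passed to cysteine and glutathione. Cells short of an amino acid stall translation initiation through the kinase GCN2, which raises the transcription factor ATF4 and its targets for amino acid synthesis and transport. In whole animals, less methionine in the diet is known to alter lipid metabolism in liver and adipose tissue.

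Assigned counts per library ranged from 31339425 to 42046711 in restricted and from 32760046 to 57162217 in high-methionine tumours, so counting error was small except for genes with few counts. Mitochondrial transcripts took 2.04% to 3.11% and 1.997% to 2.84% of the counts of restricted and high-methionine libraries. Across 11518 genes, which are not independent replicates, libraries 19 and 23 correlated at 0.9987 and libraries 20 and 24 at 0.9981, against at most 0.9893 for the other 64 pairs of Balb/c libraries. Compared as counts, these pairs gave a chi-square of 1.24 and 1.19 per degree of freedom, slightly above sampling noise, against at least 4.02 elsewhere. Histone genes of the replication-dependent kind, which make messages without poly(A), had 15 of 16 negative differences and a median of -0.15, which was -0.032 without tumour 19/23 and -0.27 without tumour 20/24. Hist1h4h averaged 29.3 ± 22 restricted and 35.9 ± 15.4 high-methionine counts (-0.23 ± 0.22, and -0.081 without tumour 19/23 and -0.42 without tumour 15), and Hist1h4a 25.8 ± 16.5 restricted and 31.1 ± 15.1 high-methionine counts (-0.17 ± 0.21, and -0.012 without tumour 19/23 and -0.32 without tumour 15) (SD, n = 6 and 4; differences restricted minus high-methionine, log2 scale, ± standard error). Both belong to a family of near-identical copies. The labels give no batch. Single tumours stood apart. Restricted tumour 17 had 127735 summed normalised counts of 22 interferon gamma response genes, against 190229 to 282223 in the other restricted tumours. Restricted tumour 16 had 3032 counts of 13 skeletal muscle genes, against 383 to 665. The averaged tumour 19/23 had 8964 counts of 11 neutrophil genes, against 343 to 914 in the other high-methionine tumours, and 43704 of 8 red blood cell genes, against 2791 to 16187. Of 13 colon epithelial markers, Krt8, Krt18 and Krt20 were abundant, Cdh1 averaged 78.3 normalised counts in restricted and 67.3 in high-methionine tumours, and Cdx2 88.3 and 77.2. Vil1, Cdx1, Muc2, Lgr5, Cldn3 and Cldn7 averaged under 10 counts in both groups.

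At the threshold used, the restricted diet left almost no called change. Of 38019 genes with a count in any library 1 passed, which is 0.00263%, and it fell (limma on the deposited log2 values, two-sided, Benjamini-Hochberg adjusted p under 0.05). This was Ighv9-3 (chromosome 12, 114140692 to 114141122, mm10), an antibody heavy-chain variable segment, listed with 0 counts in all 6 restricted tumours and with 1.2, 1.14, 2.21 and 0.92 normalised counts in high-methionine tumours 19/23, 20/24, 21 and 22 (difference -0.35 ± 0.047, adjusted p = 0.00359). Both groups lay at or under 3 counts, so no fold is given, and such segments share sequence with their relatives. The call was absent when the pairs were kept as separate libraries, when 1 library of each pair was used, and when only Balb/c tumours were fitted, with adjusted p between 0.0558 and 0.891 over these alternatives, the random block and voom. At an unadjusted p under 0.05 lay 1075 genes with higher values on the restricted diet (2.83% of those tested) and 1768 with lower values (4.65%). Values of the groups did not overlap for 168 genes higher (0.442%) and 142 lower (0.373%) on the restricted diet. Among the 18414 genes with a mean of at least 10 normalised counts, unadjusted p was under 0.05 for 4.56% higher and 5.93% lower, 51.8% had a positive difference, and the groups did not overlap for 0.76% higher and 0.456% lower. Over all genes tested 45.0% had a positive difference. Gene lists below are read against these shares. Differences are restricted minus high-methionine on the deposited log2 scale with their standard errors, a scale that compresses genes with few counts, and none of the genes named from here on passed over all genes in the 22-tumour fit. Each tumour was also left out in turn. This turned the sign or moved the difference by over 1.5 times toward 0 for 65 of the 133 genes named here, and moved it by over 1.5 times away from 0 for 31. The value without that tumour stands beside such a difference where one is printed. Values per tumour are normalised read counts, which depend on transcript length and compare tumours, not genes.

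The genes with the strongest evidence for a higher value encode secreted and matrix proteins, a transporter and enzymes. Npnt (chromosome 3, 132881745 to 132950291) encodes nephronectin, a matrix protein that binds integrins. Its values were 285 to 509 (median 302) in the 6 restricted tumours, against 121, 132, 174 and 195 in the high-methionine tumours. The groups were fully apart, with tumours 13 and 14 highest (1.04 ± 0.17, adjusted p = 0.057). It passed without tumour 15, 18 or 22 and in the quantile-normalised fit, with adjusted p between 0.0131 and 0.0492. Slc22a23 (chromosome 13, 34179158 to 34345182), an orphan member of the organic ion transporter family, had 764 to 1887 (median 1531) counts in restricted tumours, against 535, 741, 732 and 583 in high-methionine tumours. With all tumours its difference was 1.05 ± 0.20 (adjusted p = 0.158). Restricted tumour 13 came closest to the high-methionine tumours, and without it the gene passed (adjusted p = 0.00654). Passing without the restricted tumour nearest the other group is no separate support. Gramd4, which encodes a membrane-bound GRAM-domain protein linked to apoptosis, had 4870.3 to 6906 (median 6069) counts in restricted tumours, against 3313, 3436, 4450.0 and 4653 in high-methionine tumours (0.61 ± 0.12, adjusted p = 0.158).

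Dhrs9 (chromosome 2, 69380445 to 69404533), a short-chain dehydrogenase that oxidises retinol and steroids, had the largest difference of these genes. It held 1648 to 4270.4 (median 2883) counts in restricted tumours, against 661, 1127, 949 and 1511 in high-methionine tumours (1.44 ± 0.30, adjusted p = 0.174). Igfbp6, a secreted protein that binds insulin-like growth factor 2, had 7850.0 to 10344 (median 9228) counts in restricted tumours, against 6391, 5792, 5301 and 5515 in high-methionine tumours (0.67 ± 0.14, adjusted p = 0.174). The spread within each group was small for Igfbp6, and no restricted tumour reached the high-methionine range. Kazald1, a secreted protein related to the insulin-like growth factor binding proteins, had 272 to 656 (median 356) counts in restricted tumours, against 129.8, 268, 235 and 200.4 in high-methionine tumours, with the lowest restricted tumour only just above the highest high-methionine one. Acp6, a mitochondrial phosphatase of lysophosphatidic acid, averaged 1189.8 ± 92.8 restricted and 859 ± 118 high-methionine counts (SD, n = 6 and 4) and Ttc33 1079 ± 106 restricted and 808 ± 37.9 high-methionine, with differences of 0.46 and 0.40. For all 8 genes the groups did not overlap, as for 0.76% of the 18414 genes with at least 10 counts in this direction. These 8, and the 8 with the lowest t given below, were picked by the moderated t of this contrast. Their separation is therefore no separate support.

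On the lower side stood a transcription factor, the gatekeeper of fatty acid oxidation and genes of myeloid cells. Klf11, a Krüppel-like repressor responsive to transforming growth factor beta, had 298 to 506 (median 432) counts in restricted tumours, against 704, 697, 633 and 687 in high-methionine tumours (-0.67 ± 0.13, adjusted p = 0.158). Rassf4, a Ras-association protein, had 407 to 759.6 (median 466) counts in restricted tumours, against 863, 867, 809 and 1187 in high-methionine tumours (-0.86 ± 0.17, adjusted p = 0.158). Restricted tumour 18 was the highest of its group for Rassf4, and the groups did not overlap. Btk, the kinase downstream of the B cell receptor that myeloid cells also use, had 166 to 353 (median 222) counts in restricted tumours, against 495, 359, 338 and 464 in high-methionine tumours. Only tumour 18 reached into the high-methionine range for Btk (-0.75 ± 0.16, adjusted p = 0.174).

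A run of neighbouring genes on chromosome 11 (115010335 to 115048409, mm10), Cd300ld2, Cd300ld4, Cd300ld5 and Cd300ld3, encodes CD300-family receptors of myeloid cells. Cd300ld3 had 162 to 531 (median 311) counts in restricted tumours, against 653, 645, 537 and 896 in high-methionine tumours (-1.06 ± 0.21, adjusted p = 0.158). Cd300ld5 and Cd300ld4 had nearly the same values in each tumour, with differences of -1.06 and -1.01, and Cd300ld2 had fewer counts and a difference of -0.92. These are near-identical copies whose reads the authors' counting may have divided, so the 4 are not separate observations. Tumour 17 was lowest and tumour 18 highest among the restricted tumours for each of the 4. Cd300a, an inhibitory receptor of the same family further along the chromosome, had 79.8 to 253 (median 171) counts in restricted tumours, against 623, 302, 215 and 340.2 in high-methionine tumours. Tumour 19/23 was its highest, and tumour 18 lay above tumour 21 (-0.98 ± 0.23, adjusted p = 0.188).

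**Figure D1:**
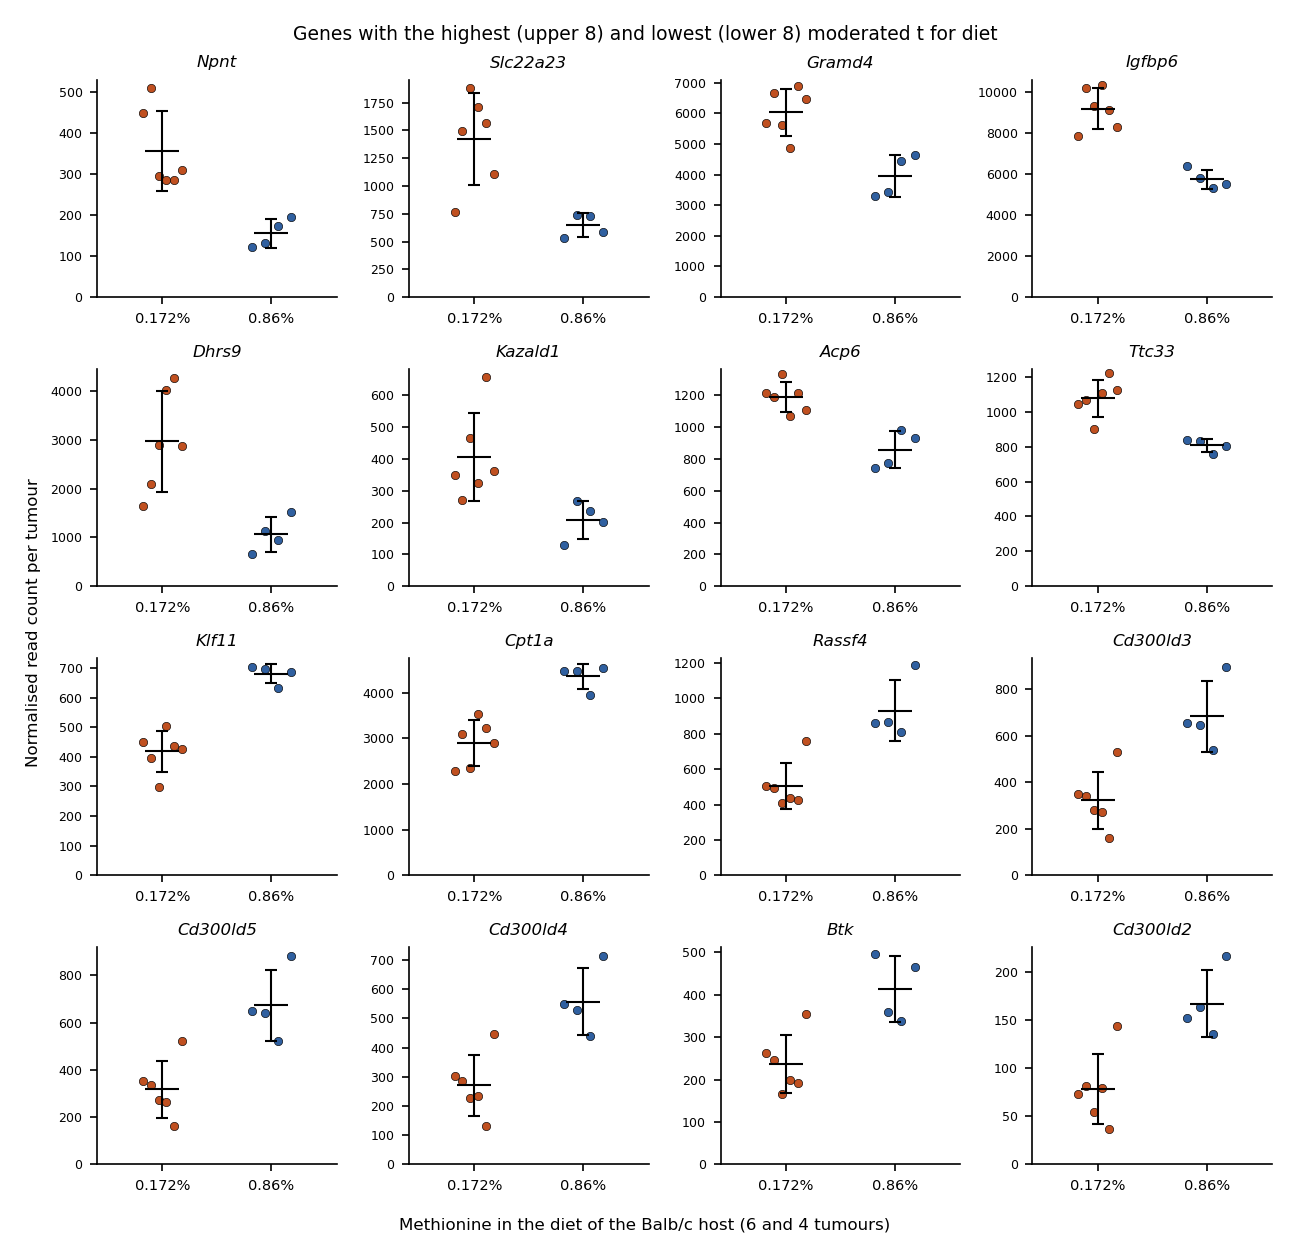
Normalised read counts per tumour of the 8 genes with the highest and the 8 with the lowest moderated t for diet in Balb/c hosts, with restricted tumours (0.172% methionine, n = 6) left of high-methionine tumours (0.86%, n = 4), each axis linear from 0. Each point is a tumour, and the lines give the mean and SD. For Npnt and Slc22a23 every restricted tumour lies above every high-methionine tumour, and for Klf11 and Cpt1a every restricted tumour lies below.

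Genes of fatty acid uptake and oxidation had mostly negative differences, and 0 of them passed. Of 30 such genes 23 had a negative and 7 a positive difference. Of the negative ones 9 had an unadjusted p under 0.05 and 4 had groups that did not overlap, and 1 positive gene had an unadjusted p under 0.05. The median difference was -0.16, against 0.0067 over the 18414 genes with at least 10 counts. It was -0.082 without the averaged tumour 19/23. Cpt1a (chromosome 19, 3322334 to 3385733), the carnitine palmitoyltransferase that admits long-chain fatty acids to the mitochondrion, had 2285 to 3541 (median 2999) counts in restricted tumours, against 4472, 4487, 3949 and 4543 in high-methionine tumours (-0.60 ± 0.12, adjusted p = 0.158). All restricted tumours lay below all high-methionine tumours. Cd36 (chromosome 5, 17781690 to 17888801), a scavenger receptor that takes up fatty acids and oxidised lipoproteins, had 189 to 609 (median 396) counts in restricted tumours, against 1207, 739, 809 and 1088 in high-methionine tumours (-1.27 ± 0.30, adjusted p = 0.188). Its groups too were apart, and it is made by macrophages, endothelium and adipocytes. Macrophage and endothelial markers are given below. Of 10 adipocyte markers 9 had negative differences too, and their median of -0.47 was -0.15 without tumour 22. Their summed counts were 1467 to 1864 in restricted tumours, against 1912 to 4904 in high-methionine tumours. Fabp4, given below, made up most of the sum in each tumour, and the mean log2 values of the adipocyte list overlapped. These were 5.52 to 6.24 in restricted tumours, against 5.62 to 7.06 in high-methionine tumours. Lipe, the hormone-sensitive lipase that adipocytes use to release fatty acids, averaged 273 ± 32.3 restricted and 323 ± 49.3 high-methionine counts (-0.21 ± 0.15) (SD, n = 6 and 4). Fabp4, a fatty acid chaperone of adipocytes, macrophages and capillaries, had 1062 to 1271 (median 1179) counts in restricted tumours, against 4429, 1482, 1699.9 and 2263 in high-methionine tumours. The restricted values were tightly grouped, and tumour 19/23 was far above the other 3 high-methionine tumours, so the difference of -0.93 was -0.61 without it.

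Plin2, Angptl4 and Pparg depended more on tumour 19/23 than Fabp4 did. Plin2, which coats lipid droplets, had 3326 to 5522 (median 4207) counts in restricted tumours, against 16710.2, 4255, 4928 and 5756 in high-methionine tumours, and its difference of -0.63 was -0.19 without tumour 19/23. Angptl4, a secreted inhibitor of lipoprotein lipase, had 1611 to 3073 (median 2561) counts in restricted tumours, against 9075, 4451, 2574 and 2938 in high-methionine tumours, with differences of -0.84 and -0.47 without it. Pparg, the nuclear receptor that drives fat storage genes, had 21.5 to 49.2 (median 34) counts in restricted tumours, against 140.1, 47.6, 46.3 and 46.9 in high-methionine tumours. Its difference of -0.60 was -0.31 without tumour 19/23. Of the enzymes of the oxidation cycle itself, Acaa2, the last thiolase step, had 583 to 716 (median 658) counts in restricted tumours, against 1119.6, 1016, 624 and 769 in high-methionine tumours (-0.39 ± 0.14, adjusted p = 0.427). Slc27a1, a fatty acid transport protein, had a positive difference, with 2841 to 4256 (median 3362) counts in restricted tumours, against 2459, 1704, 3451 and 3254 in high-methionine tumours (0.41 ± 0.17, adjusted p = 0.549, and 0.20 without tumour 20/24).

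Genes of sterol and fatty acid synthesis had mostly positive differences. Of 24 genes of cholesterol synthesis and uptake, 20 had a positive difference, 4 with an unadjusted p under 0.05 and 2 with groups that did not overlap. The list median was 0.13, which was 0.082 without tumour 16, and 0 members passed. Msmo1, the sterol-C4-methyl oxidase, had 3887 to 4685 (median 4206) counts in restricted tumours, against 2816, 3039, 2749 and 3777 in high-methionine tumours, and the groups did not overlap (0.45 ± 0.12, adjusted p = 0.239). Dhcr7, which makes cholesterol from 7-dehydrocholesterol, had 913 to 1129.9 (median 949.9) counts in restricted tumours, against 626, 859.5, 703 and 907 in high-methionine tumours, with tumour 22 nearly at the lowest restricted value (0.34 ± 0.11, adjusted p = 0.386). Sqle, squalene epoxidase, had 3235 to 4767 (median 4142) counts in restricted tumours, against 3504, 3950.0, 2719 and 3433 in high-methionine tumours (0.28 ± 0.11, and 0.18 without tumour 21). Hmgcs1, the synthase at the entry of the pathway, overlapped between groups, with 1953 to 2984 (median 2253) counts in restricted tumours, against 1749, 2182, 2217 and 2238 in high-methionine tumours (0.16 ± 0.15, adjusted p = 0.843, and 0.08 without tumour 19/23).

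Of 14 genes of fatty acid synthesis 10 had a positive difference, 2 of them with an unadjusted p under 0.05. The list median of 0.093 was 0.0205 without tumour 19/23 and 0.16 without tumour 22. Scd1, which desaturates stearate to oleate, had 14414 to 20002 (median 15902) counts in restricted tumours, against 6945, 9377, 16316 and 14564 in high-methionine tumours (0.57 ± 0.16, adjusted p = 0.292). Tumours 19/23 and 20/24 were low, and tumours 21 and 22 lay inside the restricted range. The difference of Scd1 was 0.34 without tumour 19/23. Its paralog Scd2 had 17437 to 27414 (median 21816) counts in restricted tumours, against 11731, 17444, 19135 and 19548 in high-methionine tumours (0.38 ± 0.16, adjusted p = 0.559, and 0.22 without tumour 19/23).

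**Figure D2:**
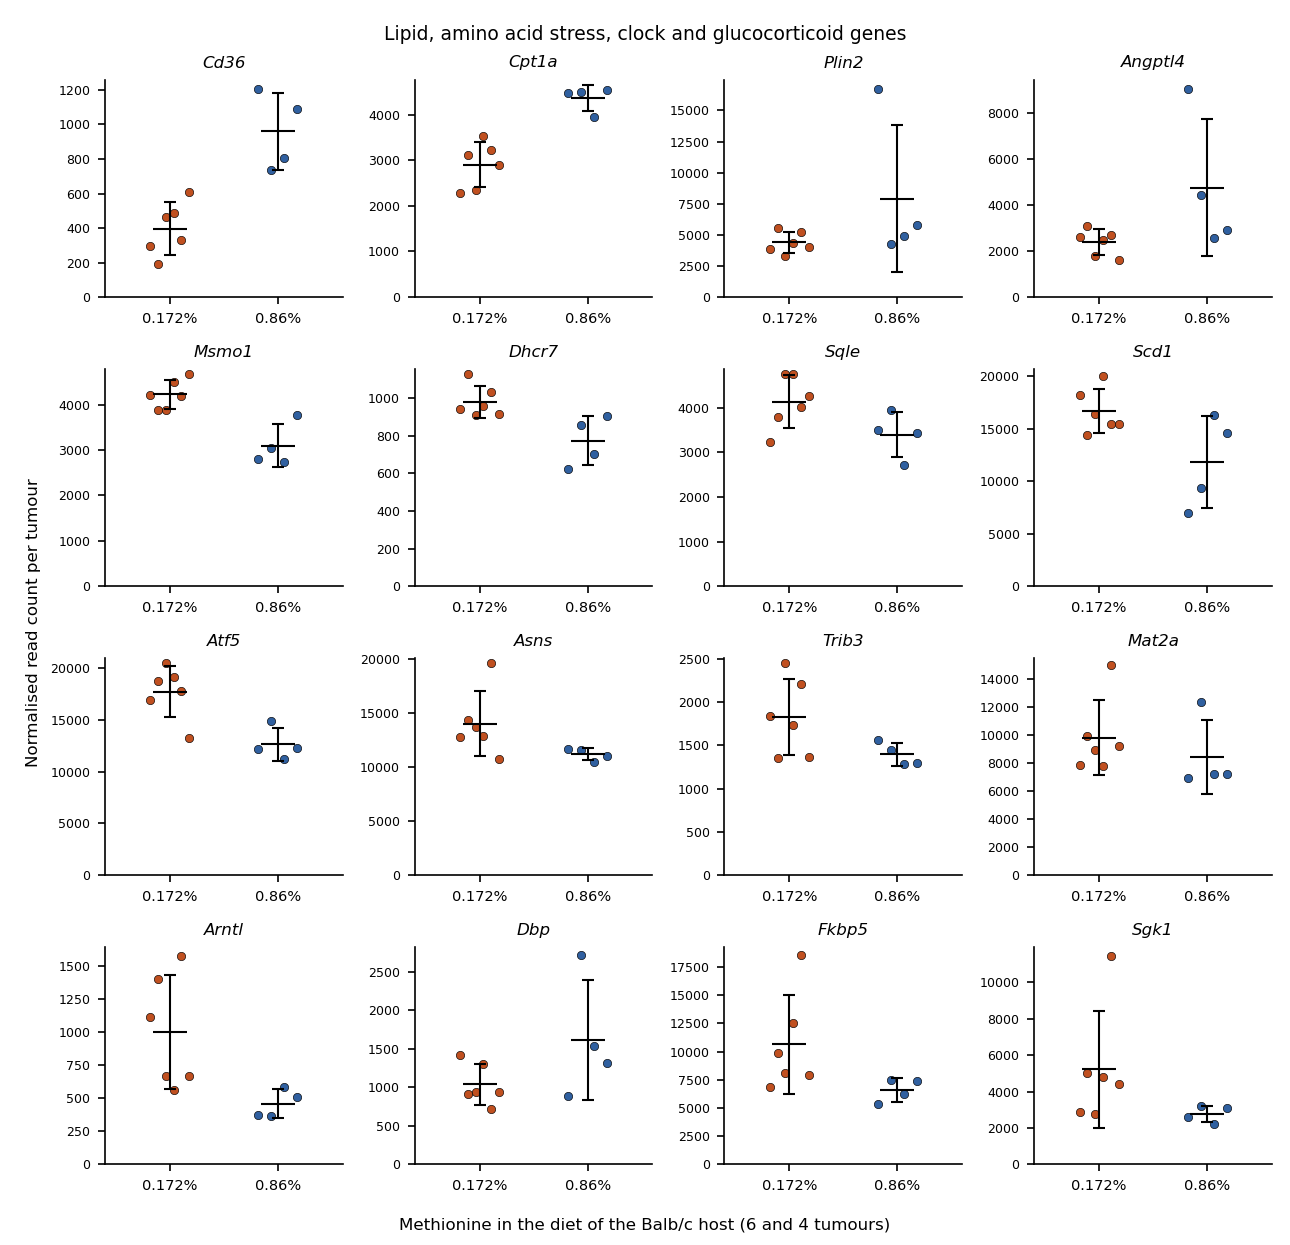
Normalised read counts per tumour of 16 genes of lipid metabolism, amino acid shortage, the clock and glucocorticoid response, restricted tumours (0.172% methionine, n = 6) left of high-methionine tumours (0.86%, n = 4), on linear axes from 0. Points are tumours, and lines are means and SD. Cd36 and Cpt1a do not overlap between diets, Plin2 is highest in tumour 19/23 and Angptl4 in tumours 19/23 and 20/24, and Arntl is higher in most restricted tumours with a small overlap.

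The enzymes that handle methionine itself showed little. Of 14 methionine cycle genes 7 had a positive and 7 a negative difference, with a median of 0.034, which lay between 0.015 and 0.078 with 1 tumour left out. Mat2a, which makes S-adenosylmethionine in tissues outside the liver, had 7914, 9980.1, 8988, 7830.0, 15058 and 9278 counts in restricted tumours 13 to 18, against 6966, 12399.5, 7223 and 7273 in high-methionine tumours (0.22 ± 0.16, adjusted p = 0.836). Tumour 17 and tumour 20/24 stood far above the rest of their groups, and without tumour 17 the difference was 0.094 and without tumour 20/24 it was 0.42. Mtr, methionine synthase, had 888 to 999.7 (median 938) counts in restricted tumours, against 956, 1179, 1053 and 1108 in high-methionine tumours (-0.19 ± 0.11, adjusted p = 0.751). Its reductase Mtrr had 916 to 1362 (median 1096) counts in restricted tumours, against 815, 815, 974 and 1127 in high-methionine tumours (0.25 ± 0.12, adjusted p = 0.647). Ahcy, which cleaves S-adenosylhomocysteine, averaged 8442 ± 1176 restricted and 8496 ± 1224 high-methionine counts (SD, n = 6 and 4). Ahcyl2, a homologue of that enzyme, had 2127 to 3459 (median 2233) counts in restricted tumours, against 1342, 1893, 2432 and 2249.9 in high-methionine tumours (0.33 ± 0.15, adjusted p = 0.598, and 0.16 without tumour 19/23).

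The arm that leads to cysteine was nearly silent in both groups. Cbs, cystathionine beta-synthase, had at most 2.47 counts in any restricted and 1.55 in any high-methionine tumour, and Cth, cystathionine gamma-lyase, at most 5.9 and 5.52. Slc7a11, the cystine importer, was abundant, at 4245 to 4935 (median 4479.6) counts in restricted tumours, against 5890.2, 4591, 3759 and 4097 in high-methionine tumours (0.0035 ± 0.11, adjusted p = 1, and -0.084 without tumour 21 and 0.13 without tumour 19/23). In the 17-gene list of transsulfuration, sulfide and glutathione 1 gene had an unadjusted p under 0.05, which was Csad of taurine synthesis (0.41 ± 0.18, adjusted p = 0.604, and 0.24 without tumour 21 and 0.67 without tumour 20/24). Ethe1, a mitochondrial enzyme of sulfide oxidation, averaged 1394 ± 107 restricted and 1235 ± 92.3 high-methionine counts (0.17 ± 0.09). Salvage of methionine from polyamine synthesis gave 8 of 16 positive differences. Got1, the aminotransferase, averaged 6291 ± 1123 restricted and 4731 ± 663 high-methionine counts and Azin1, which relieves the block on ornithine decarboxylase, 7617 ± 2717 restricted and 5247 ± 421 high-methionine, with differences of 0.40 and 0.47. The 15 folate one-carbon genes held 0 with an unadjusted p under 0.05 and a median of 0.033, which lay between 0.017 and 0.069 with 1 tumour left out. Mthfd2, a mitochondrial folate dehydrogenase, averaged 7089.9 ± 1737 restricted and 5538 ± 529 high-methionine counts (0.32 ± 0.20), and Slc25a32, the mitochondrial folate carrier, 1438 ± 245 restricted and 1255 ± 274 high-methionine counts (0.20 ± 0.13, and 0.12 without tumour 17 and 0.34 without tumour 20/24). Methyltransferases that use S-adenosylmethionine had a median of -0.031 over 24 genes, which lay between -0.081 and 0.033 with 1 tumour left out. Gamt, the methyltransferase of creatine synthesis, was their single gene with an unadjusted p under 0.05, at 169 to 298 (median 253) counts in restricted tumours, against 342, 349.9, 313 and 246 in high-methionine tumours (-0.37 ± 0.15, adjusted p = 0.525). Mettl3, which methylates adenosine in RNA, averaged 698 ± 51.1 restricted and 633 ± 64.3 high-methionine counts (0.14 ± 0.092, and 0.08 without tumour 19/23) (SD, n = 6 and 4).

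Targets of ATF4 had a slight excess of positive differences. Of 34 targets 26 were positive, with a median of 0.14, 2 with an unadjusted p under 0.05 higher and 1 lower, which is near the background shares. Atf5, itself a transcription factor made from a stress-translated message, had 13300.2 to 20481 (median 18295) counts in restricted tumours, against 12193, 14924, 11225 and 12249 in high-methionine tumours (0.48 ± 0.14, adjusted p = 0.272). Restricted tumour 18 overlapped with the high-methionine range. Asns, asparagine synthetase, had 10751 to 19576 (median 13306) counts in restricted tumours, against 11689, 11554, 10464 and 11013 in high-methionine tumours, and tumour 17 was its highest (0.30 ± 0.17, adjusted p = 0.742, and 0.20 without tumour 17). Trib3, a pseudokinase that feeds back on ATF4, had 1354 to 2444 (median 1786) counts in restricted tumours, against 1557, 1441, 1283 and 1299 in high-methionine tumours (0.35 ± 0.26, adjusted p = 0.836). Slc38a2, a sodium-coupled carrier of small neutral amino acids, had 15855 to 25412 (median 19563) counts in restricted tumours, against 12827, 19136, 15249 and 17498 in high-methionine tumours (0.29 ± 0.12, adjusted p = 0.505, and 0.19 without tumour 19/23). The serine synthesis enzyme gene Phgdh averaged 16649 ± 1682 restricted and 16950.2 ± 2373 high-methionine counts, a difference of -0.021 (0.067 without tumour 19/23 and -0.079 without tumour 21), and Psat1 of the same pathway 12837 ± 2433 restricted and 13171 ± 1432 high-methionine, a difference of -0.052 (0.0065 without tumour 18 and -0.12 without tumour 15; SD, n = 6 and 4).

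Carriers of neutral amino acids went both ways. Slc7a5, the large neutral amino acid exchanger, averaged 11117 ± 1368 restricted and 10736 ± 619.7 high-methionine counts. Slc7a8, its relative of wider substrate range, had 413 to 912 (median 571) counts in restricted tumours, against 1335, 806, 856 and 915 in high-methionine tumours (-0.69 ± 0.18, adjusted p = 0.202). Tumour 18 alone overlapped, and without it Slc7a8 passed (adjusted p = 0.0286). The tumour left out was the only overlapping member, so passing without it is no separate support. Slc43a2, a facilitated carrier whose substrates include methionine, had 462 to 895 (median 712) counts in restricted tumours, against 1308, 852, 945 and 1106 in high-methionine tumours, with tumour 18 alone above tumour 20/24 (-0.57 ± 0.20, adjusted p = 0.421). Chaperones and other genes of endoplasmic reticulum stress had 13 of 14 positive differences with a median of 0.082, which was -0.0081 without tumour 20/24 and 0.18 without tumour 19/23. Dnajb9, a cochaperone of BiP, had 955 to 1688 (median 1518) counts in restricted tumours, against 936, 892, 1252 and 1181 in high-methionine tumours (0.40 ± 0.15, adjusted p = 0.447). Herpud1, which acts in the disposal of misfolded proteins, averaged 3662 ± 178 restricted and 2999 ± 331 high-methionine counts (0.29 ± 0.11). Of 18 targets of the oxidant-response factor NRF2, 12 had a negative difference and 0 an unadjusted p under 0.05, and the median of -0.086 was 0.051 without tumour 19/23. Osgin1 of that list averaged 146 ± 56.1 restricted and 185 ± 42.2 high-methionine counts (-0.33 ± 0.21, and -0.21 without tumour 17) (SD, n = 6 and 4).

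The core clock gene Arntl had higher values in most restricted tumours. Arntl encodes BMAL1, which with CLOCK drives the Per, Cry and Nr1d genes and the output factor Dbp, while NR1D1 represses Arntl in return. It had 1115, 1403, 667, 565, 1579.9 and 671 counts in restricted tumours 13 to 18, against 370.2, 364, 587 and 509 in high-methionine tumours (0.996 ± 0.23, adjusted p = 0.188). Tumours 13, 14 and 17 lay far above, while tumour 16 lay below tumour 21. Without tumour 18 it passed, with a difference of 1.09 (adjusted p = 0.0391). That tumour was singled out because the gene passed without it, so this is no separate support. Of the 16 clock genes 12 had a negative difference, with a median of -0.14, which was -0.038 without tumour 20/24 and -0.21 without tumour 15. Dbp had 723 to 1424 (median 946) counts in restricted tumours, against 889, 2719.7, 1544 and 1318 in high-methionine tumours (-0.54 ± 0.22, adjusted p = 0.505, and -0.26 without tumour 20/24), and Nr1d1 1224 to 3293 (median 1849.9) counts in restricted tumours, against 2315, 2072, 3521 and 2312 in high-methionine tumours (-0.43 ± 0.28, adjusted p = 0.802, and -0.26 without tumour 21). The labels give no time of day of collection, so diet and time cannot be told apart for these genes.

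Promoters of 3 genes that stand for the 3 regulatory systems above are shown because each holds the textbook element of its system. They run from 250 bases before to 50 after the RefSeq start, GRCm38.p6, 5′ to 3′ on the gene's strand, and capitals mark the element. The Arntl promoter (chr7:113207261-113207560, plus strand) holds the RORE core TAGGTCA, to which NR1D1 and ROR proteins bind. The Asns promoter (chr6:7693160-7693459, minus strand) holds a CARE, TGATGNAA, to which ATF4 binds with a CEBP partner. The Hmgcs1 promoter (chr13:119690101-119690400, plus strand) holds a sterol regulatory element, TCACNCCAC, to which SREBP2 binds.
Arntl: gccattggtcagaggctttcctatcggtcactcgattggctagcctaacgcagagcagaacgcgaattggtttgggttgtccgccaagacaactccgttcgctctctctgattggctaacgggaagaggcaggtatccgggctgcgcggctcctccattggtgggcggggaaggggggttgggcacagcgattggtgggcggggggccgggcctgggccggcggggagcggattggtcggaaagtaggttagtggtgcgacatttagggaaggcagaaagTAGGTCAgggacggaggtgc
Asns: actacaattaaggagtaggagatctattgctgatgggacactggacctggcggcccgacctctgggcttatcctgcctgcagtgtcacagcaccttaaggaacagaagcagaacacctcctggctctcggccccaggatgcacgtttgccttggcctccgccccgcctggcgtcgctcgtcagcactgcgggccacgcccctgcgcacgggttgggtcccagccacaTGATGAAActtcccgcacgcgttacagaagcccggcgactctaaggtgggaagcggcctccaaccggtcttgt
Hmgcs1: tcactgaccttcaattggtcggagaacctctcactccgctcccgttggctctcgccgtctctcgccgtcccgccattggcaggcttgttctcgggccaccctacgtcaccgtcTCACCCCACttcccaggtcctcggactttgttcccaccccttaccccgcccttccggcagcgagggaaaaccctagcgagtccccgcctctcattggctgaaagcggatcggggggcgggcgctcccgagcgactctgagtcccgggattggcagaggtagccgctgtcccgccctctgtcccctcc
Searched on both strands, these motifs occur in 2.61%, 3.97% and 1.24% of 32851 mouse promoters of this length. A match is a run of letters and not evidence of binding in these tumours, and of these 3 genes Arntl alone passed in any of the fits run.

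Targets of the glucocorticoid receptor went both ways, with 7 positive and 5 negative differences. Of these, 3 higher and 2 lower had an unadjusted p under 0.05. The median was 0.24 over 12 genes, which was -0.016 without tumour 17. Angptl4 of this list, given above with the lipid genes, had a difference of -0.84, which was -0.47 without tumour 19/23. Fkbp5, a cochaperone that restrains the receptor, had 6875, 9859, 8145, 12530.5, 18581 and 7905 counts in restricted tumours 13 to 18, against 5317, 7524, 6243 and 7395 in high-methionine tumours (0.61 ± 0.21, adjusted p = 0.41). Tumours 16 and 17 were highest, and the difference without tumour 17 was 0.43. Sgk1, a kinase induced by glucocorticoids, had 2854, 5012, 2795, 4819, 11451 and 4416 counts in restricted tumours 13 to 18, against 2629, 3191, 2244 and 3087 in high-methionine tumours. Tumour 17 stood far above, and the difference of 0.74 was 0.48 without it. Klf9 averaged 2576 ± 693 restricted and 1843 ± 653 high-methionine counts (SD, n = 6 and 4) and had a difference of 0.51, which was 0.29 without tumour 19/23. Immediate early genes, which answer stimuli and tissue handling within minutes, went both ways, 7 of 13 with a positive difference. Nr4a1, an orphan nuclear receptor, averaged 1027 ± 354 restricted and 711 ± 157 high-methionine counts (0.48 ± 0.18), and Fos, a subunit of the factor AP-1, 244 ± 46.7 restricted and 414 ± 256 high-methionine counts (-0.56 ± 0.22, and -0.21 without tumour 19/23).

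Markers of macrophages, antigen presentation and vessels had mostly negative differences, and 0 of them passed. In such bulk samples fewer cells of a type and less RNA per cell cannot be told apart. Of 21 macrophage genes 19 had a negative difference, 12 of them with an unadjusted p under 0.05, and the median was -0.55. Their summed counts were 61684 to 156304 in restricted tumours, against 120602 to 168191 in high-methionine tumours, and no defining marker was at 0. Fcgr1, the high-affinity IgG receptor, had 440.0 to 1703 (median 975) counts in restricted tumours, against 3575, 1495, 1141 and 1661 in high-methionine tumours (-0.95 ± 0.28, adjusted p = 0.334, and -0.62 without tumour 19/23). Adgre1, which encodes F4/80, had 889 to 2709.8 (median 1296) counts in restricted tumours, against 2049, 2258, 2122 and 2846 in high-methionine tumours, with tumour 18 the only restricted tumour inside the high-methionine range (-0.77 ± 0.26, adjusted p = 0.427). Trem2, a lipid receptor of tumour macrophages, had 514 to 1173 (median 652) counts in restricted tumours, against 1369, 1061, 1087 and 1194 in high-methionine tumours (-0.67 ± 0.21, adjusted p = 0.356). Ccr2, which brings monocytes in from blood, had 356 to 961 (median 786) counts in restricted tumours, against 2664, 2556, 734 and 1349 in high-methionine tumours, so tumour 21 lay inside the restricted range (-1.23 ± 0.39, adjusted p = 0.381). The complement genes made by macrophages were closer, with C1qa at 5615 to 12736 (median 7365) counts in restricted tumours, against 9644, 9627, 9933 and 12519 in high-methionine tumours (-0.38 ± 0.23, adjusted p = 0.752). The pan-leukocyte gene Ptprc and the myeloid factor Spi1 passed without tumour 18, at -0.84 and -0.81 (adjusted p = 0.0387 and 0.0392). With all tumours their adjusted p was 0.447 and 0.253. Both were chosen after their values were seen, and tumour 18 was the highest restricted tumour for each. Passing without it is therefore no separate support.

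All 10 genes of MHC class II presentation had negative differences, 7 with an unadjusted p under 0.05, and the median was -0.92. H2-Aa, the alpha chain of I-A, had 1795, 922, 493, 934, 262 and 1108 counts in restricted tumours 13 to 18, against 5308, 1166, 805 and 2809 in high-methionine tumours (-1.27 ± 0.55, adjusted p = 0.589, and -0.79 without tumour 19/23). Tumours 19/23 and 22 were far above all others, and tumours 20/24 and 21 lay inside the restricted range. Summed over the list, counts were 1961 to 10024 in restricted tumours, against 27339, 6308, 4687 and 15073 in high-methionine tumours. Cd74, the invariant chain, had 764 to 4368 (median 2429.6) counts in restricted tumours, against 10581, 2284, 2033 and 6583 in high-methionine tumours, again highest in tumours 19/23 and 22. Ciita, the transactivator of the class II genes, had 14.7 to 60.6 (median 50.7) counts in restricted tumours, against 189, 62.8, 46.3 and 171 in high-methionine tumours (-0.95 ± 0.33, adjusted p = 0.427). H2-DMb2, a subunit of the peptide loader of class II, averaged 189 ± 82.5 restricted and 381 ± 257 high-methionine counts (-0.80 ± 0.33, and -0.43 without tumour 19/23). Without tumour 19/23 the list median was -0.50. Dendritic cell markers had 11 of 12 negative differences and a median of -0.50, with summed counts of 7524 to 10755 in restricted tumours, against 8243 to 12500 in high-methionine tumours. Xcr1, a chemokine receptor of the cross-presenting type, averaged 13.4 ± 9.66 restricted and 29.1 ± 11.8 high-methionine counts (SD, n = 6 and 4), a difference of -0.58. Clec9a, which marks the same cells, averaged 13.2 ± 5.64 restricted and 30.1 ± 14.2 high-methionine counts, a difference of -0.54. Ccr7, the homing receptor of mature dendritic cells, averaged 70.7 ± 27.4 restricted and 107 ± 14 high-methionine counts (-0.49 ± 0.23), and Siglech, a marker of plasmacytoid dendritic cells, 20.1 ± 13.6 restricted and 42 ± 19.7 high-methionine counts (-0.62 ± 0.31). Irf4, a lymphoid and dendritic cell factor, had 12.6 to 32.2 (median 21.3) counts in restricted tumours, against 46.6, 38.4, 43 and 62.5 in high-methionine tumours, and its groups did not overlap (-0.65 ± 0.14, adjusted p = 0.174). It was chosen after its values were seen, so this is no separate support.

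Of 16 endothelial genes 15 had negative differences, 7 with an unadjusted p under 0.05, and the median of -0.48 was -0.17 without tumour 19/23. Their summed counts were 9062 to 13573 in restricted tumours, against 11788 to 25226 in high-methionine tumours. Kdr, the main receptor of VEGF-A on vessels, had 303 to 730.1 (median 431) counts in restricted tumours, against 1308, 954, 561 and 603 in high-methionine tumours, with tumours 21 and 22 inside the restricted range (-0.81 ± 0.23, adjusted p = 0.271). Robo4, a vessel-stabilising receptor, had 327 to 479 (median 399) counts in restricted tumours, against 849, 573, 586 and 427 in high-methionine tumours (-0.54 ± 0.17, adjusted p = 0.354). Nos3, the endothelial nitric oxide synthase, was the exception with 344, 300.4, 113, 125, 1216 and 149 counts in restricted tumours 13 to 18, against 264, 143, 128 and 131 in high-methionine tumours, with tumour 17 far above all others. The ligand gene Vegfa had 4192 to 7742 (median 5487) counts in restricted tumours, against 6909.8, 3646, 5899.6 and 5027 in high-methionine tumours (0.065 ± 0.18, adjusted p = 1, and -0.11 without tumour 20/24 and 0.20 without tumour 19/23). The matrix gene Col3a1 had 11124 to 23362 (median 16471) counts in restricted tumours, against 98007, 39300.3, 10149 and 15776 in high-methionine tumours, and its difference of -0.79 was -0.19 without tumour 19/23 and -1.28 without tumour 21. Lists of 15 fibroblast and 8 red blood cell genes likewise had medians of -0.31 and -0.61, which were -0.068 and -0.024 without it. The red blood cell median was -1.13 without tumour 20/24, and the fibroblast median -0.53 without tumour 21. Sparc, a matrix glycoprotein, averaged 20455 ± 2789 restricted and 27939.7 ± 14075 high-methionine counts (-0.34 ± 0.21, and -0.037 without tumour 19/23 and -0.53 without tumour 21), and Alas2, of haem synthesis in red cell precursors, 40.6 ± 18.4 restricted and 84.7 ± 57.5 high-methionine counts (-0.60 ± 0.28, and -0.30 without tumour 19/23 and -0.97 without tumour 20/24) (SD, n = 6 and 4). The part of host cell content in the lipid and myeloid results above was not tested.

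**Figure D3:**
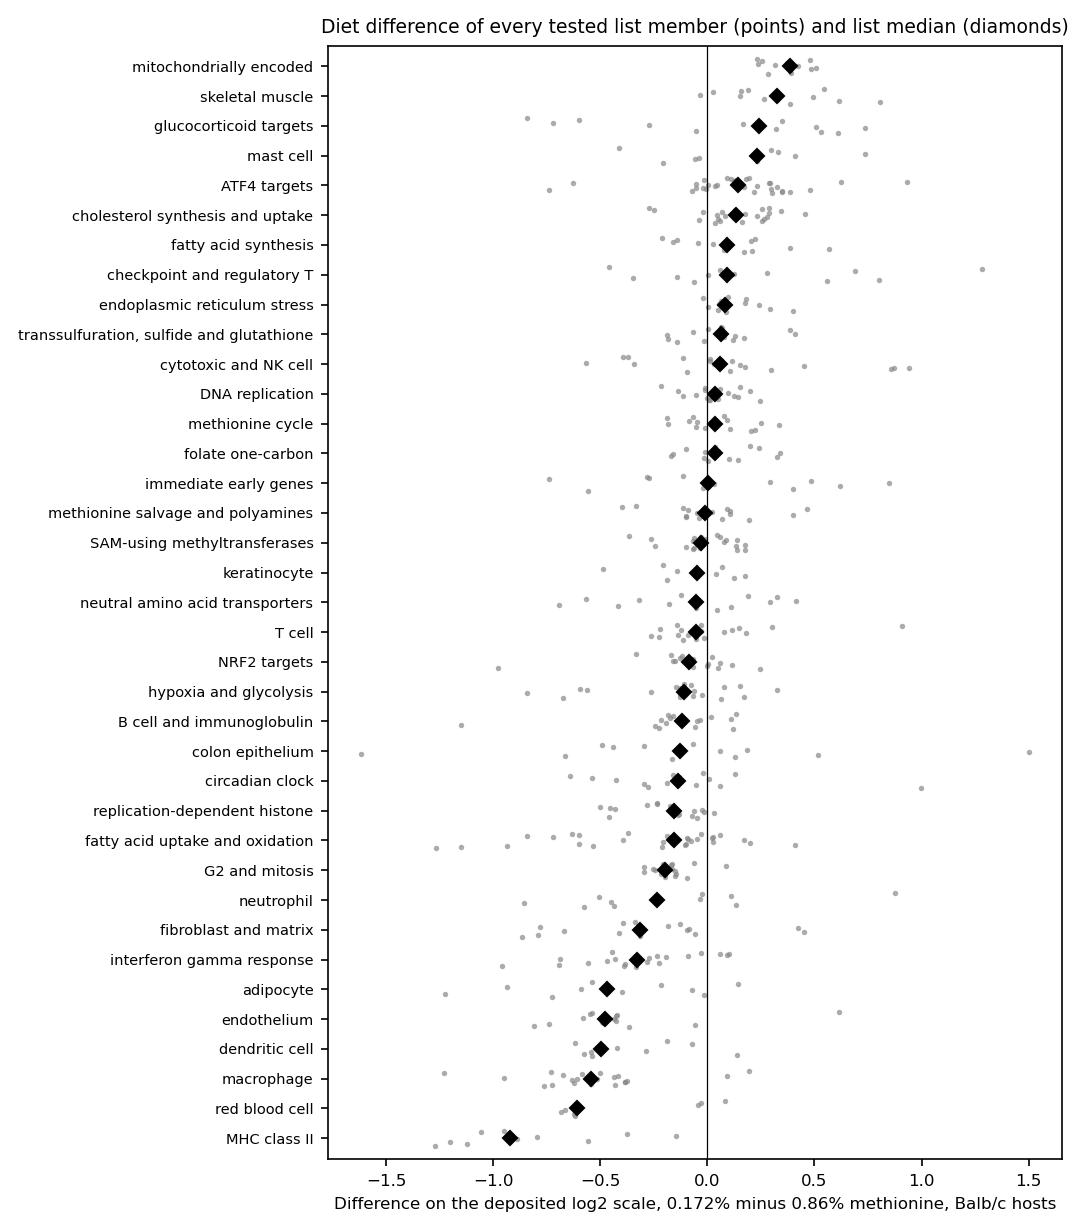
Differences, restricted minus high-methionine, on the deposited log2 scale for the members of 37 gene lists, with each point a gene and the diamond the list median. MHC class II, red blood cell, macrophage and endothelial genes lie mostly below 0, while mitochondrially encoded and cholesterol genes lie mostly above.

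**Figure D4:**
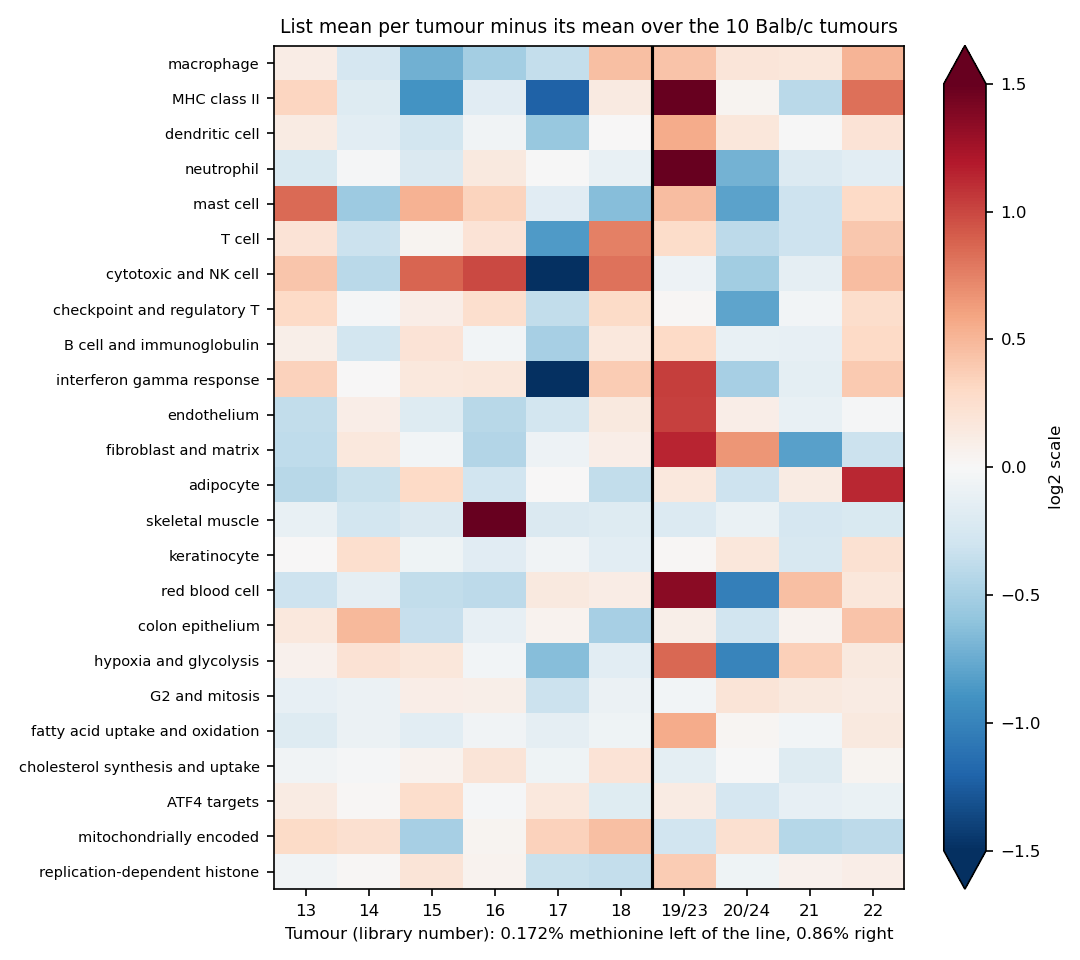
Colour gives the mean deposited log2 value of each cell type or pathway list in a tumour minus its mean over the 10 Balb/c tumours, with restricted tumours (0.172% methionine, n = 6) left of high-methionine tumours (0.86%, n = 4). Restricted tumour 17 is low for interferon gamma response and cytotoxic genes, restricted tumour 16 is high for skeletal muscle, and the averaged tumour 19/23 is high for MHC class II, endothelial and matrix genes.

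Lymphocyte genes overlapped between the diets. Of 19 T cell genes 6 had positive and 13 negative differences, and of 20 cytotoxic and NK cell genes 14 and 6. Gzmb, which encodes the killing protease granzyme B, had 1399, 694, 3119, 3226, 28.4 and 2008 counts in restricted tumours 13 to 18, against 896, 377, 1123 and 1943 in high-methionine tumours (0.10 ± 0.79, adjusted p = 1, and -0.31 without tumour 20/24 and 0.94 without tumour 17). Prf1, the pore-forming perforin, had 1600.1, 821, 4411, 5349, 23.2 and 3285 counts in restricted tumours 13 to 18, against 602, 440.5, 1315 and 2221 in high-methionine tumours (0.45 ± 0.88, adjusted p = 0.979, and 0.049 without tumour 16 and 1.39 without tumour 17). In tumour 17 both were close to silent, while tumours 15 and 16 held the highest values of all 10. Cd8a, a coreceptor of cytotoxic T cells, had 22.8, 6.18, 28.2, 53, 2.11 and 235 counts in restricted tumours 13 to 18, against 34.3, 10.9, 24.3 and 106 in high-methionine tumours. Klrk1, an activating receptor of NK and T cells, averaged 129 ± 79.1 restricted and 189 ± 103 high-methionine counts (-0.57 ± 0.38, and -0.22 without tumour 17), the chemokine Ccl5 132 ± 54.7 restricted and 184 ± 102 high-methionine counts (-0.37 ± 0.27, and -0.085 without tumour 19/23 and -0.58 without tumour 22), and Cd247, the zeta chain of the T cell receptor complex, 22.8 ± 10.5 restricted and 31.4 ± 16.2 high-methionine counts (-0.22 ± 0.19, and -0.069 without tumour 19/23 and -0.40 without tumour 21) (SD, n = 6 and 4). Interferon gamma response genes had 19 of 22 negative differences and a median of -0.33, with 0 at an unadjusted p under 0.05. That median was -0.026 without tumour 19/23, 0.064 without tumour 17 and -0.49 without tumour 20/24. Socs1, which restrains interferon signalling, averaged 472 ± 166 restricted and 660.4 ± 325 high-methionine counts (-0.45 ± 0.25, and -0.16 without tumour 19/23), and the transcription factor Irf1 2671 ± 916 restricted and 3595 ± 1851 high-methionine counts (-0.39 ± 0.29, and -0.085 without tumour 19/23 and -0.64 without tumour 20/24). Cd274, which encodes the checkpoint ligand PD-L1, had 659 to 1146 (median 848) counts in restricted tumours, against 1626, 321, 900.2 and 921 in high-methionine tumours (0.058 ± 0.28, adjusted p = 1, and -0.36 without tumour 20/24 and 0.38 without tumour 19/23). Ptpn22, a phosphatase that restrains T cell receptor signalling, had 1947 to 4656 (median 3102) counts in restricted tumours, against 1079, 888, 2127 and 2278 in high-methionine tumours, with tumour 14 alone overlapping (1.07 ± 0.26, adjusted p = 0.2). Of 12 checkpoint and regulatory T cell genes 8 had a positive and 4 a negative difference. Their median of 0.092 was -0.11 without tumour 20/24 and 0.28 without tumour 17. The checkpoint receptor Tigit averaged 617 ± 239 restricted and 374 ± 159.8 high-methionine counts (0.69 ± 0.29). Vsir, which encodes VISTA, averaged 1212 ± 358 restricted and 1651 ± 335 high-methionine counts (-0.46 ± 0.22). Of 17 B cell and immunoglobulin genes 13 had a negative difference. Their median of -0.12 was 0 without tumour 19/23 and -0.18 without tumour 21. Ighm, the IgM heavy chain, had 11.6 to 313 (median 102) counts in restricted tumours, against 277, 239.7, 97.1 and 434 in high-methionine tumours (-1.15 ± 0.47, adjusted p = 0.52). Cd79a, a signalling chain of the B cell receptor, averaged 159 ± 136 restricted and 132 ± 72.3 high-methionine counts (-0.058 ± 0.54, and 0.25 without tumour 17 and -0.40 without tumour 20/24).

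Epithelial keratins varied widely within each diet. Krt20, an intestinal keratin, had 6163, 17470.5, 1128, 11689, 32791 and 5173 counts in restricted tumours 13 to 18, against 1717, 3932, 2913 and 3014 in high-methionine tumours (adjusted p = 0.633). Tumours 14, 16 and 17 were the highest, and tumour 15 lay below all high-methionine tumours. Krt8 had 10690.1, 29746, 332, 944, 133 and 136 counts in restricted tumours 13 to 18, against 2551, 2974, 2077 and 794 in high-methionine tumours, with its highest values in tumours 13 and 14. Krt19 averaged 12.4 ± 9.77 restricted and 144 ± 163 high-methionine counts (-1.62 ± 0.74, and -1.01 without tumour 22) (SD, n = 6 and 4). Among genes of mesenchymal and WNT biology, Twist1, a transcription factor of epithelial to mesenchymal change, had 2471 to 3738 (median 2791) counts in restricted tumours, against 1910.0, 1646, 2147 and 2195 in high-methionine tumours (0.55 ± 0.13, adjusted p = 0.188). Wnt10a, a secreted WNT ligand, had 4541 to 9868 (median 5366) counts in restricted tumours, against 2407, 3707, 4172 and 3664 in high-methionine tumours (0.82 ± 0.20, adjusted p = 0.188). Mitf, a helix-loop-helix factor of lysosome and melanocyte genes, had 1022 to 2348 (median 1233) counts in restricted tumours, against 528, 942, 869 and 820.2 in high-methionine tumours (0.79 ± 0.19, adjusted p = 0.188). The groups of these 3 genes did not overlap, as for 0.76% of the 18414 genes with at least 10 counts in this direction. The 3 were chosen after their values were seen, so this is no separate support. No list of mesenchymal or WNT genes was read.

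Proliferation genes gave a mixed picture. Of 19 genes of G2 and mitosis 18 had negative differences, with a median of -0.20, and of 19 DNA replication genes 12 had positive ones, with a median of 0.035, which was 0.003 without tumour 14 and 0.074 without tumour 20/24. Mcm2 and Mcm7 encode subunits of the replicative helicase. Mcm2 averaged 7435 ± 1253 restricted and 6254 ± 955 high-methionine counts (0.25 ± 0.12, and 0.15 without tumour 22), and Mcm7 10076 ± 958 restricted and 9083 ± 439.5 high-methionine counts (0.15 ± 0.093) (SD, n = 6 and 4). Cdc20, an activator of the anaphase-promoting complex, had 3434 to 5323 (median 4626) counts in restricted tumours, against 6407, 5186, 4746 and 5173 in high-methionine tumours (-0.25 ± 0.11, adjusted p = 0.566, and -0.17 without tumour 19/23). Bub1b, a kinase of the spindle checkpoint, had 2874 to 3831 (median 3240.3) counts in restricted tumours, against 3385, 4171, 4262 and 3956 in high-methionine tumours (-0.25 ± 0.10, adjusted p = 0.516). Mki67 had 9907 to 13629 (median 10454) counts in restricted tumours, against 7266, 15522, 12179 and 13538 in high-methionine tumours (-0.095 ± 0.21, adjusted p = 0.99), and its difference was 0.041 without tumour 20/24 and -0.32 without tumour 19/23. Each of the 13 mitochondrially encoded genes was positive, 6 with an unadjusted p under 0.05, and a median of 0.38. Of these, mt-Co1, a subunit of cytochrome c oxidase, had 344543 to 497602 (median 396901) counts in restricted tumours, against 311111, 313891, 364409 and 312102 in high-methionine tumours, and its difference of 0.31 was -0.064 under quantile normalisation. The complex I subunit gene mt-Nd4l averaged 8717 ± 1708 restricted and 6478 ± 2444 high-methionine counts (0.48 ± 0.19, and 0.23 without tumour 19/23). Genes of hypoxia and glycolysis had a median of -0.11, which was 0.16 without tumour 19/23, 0.034 without tumour 17 and -0.37 without tumour 20/24. Pfkfb3, a regulator of glycolysis, had 329 to 739 (median 456) counts in restricted tumours, against 1435, 323, 1105 and 972 in high-methionine tumours (-0.84 ± 0.30, adjusted p = 0.44, and -1.28 without tumour 20/24). Its relative Pfkfb4 averaged 349 ± 52 restricted and 429 ± 92.8 high-methionine counts (-0.26 ± 0.16, and -0.15 without tumour 20/24).

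How many genes were called depended on how the near-identical libraries were treated and on tumour 18. With all 24 libraries kept apart 30 genes rose (0.0789%) and 82 fell (0.216%). That fit counts the near-identical libraries as separate tumours, so its p-values overstate the evidence. Without tumour 18, in the fit of the remaining 21 tumours, 10 of 38019 genes rose and 112 fell. The 112 genes called with 24 libraries and the 122 called without tumour 18 shared 63, which is 56.2% and 51.6% of each. Both included Npnt, Arntl, Cpt1a, Cd36 and Slc7a8. These fits share most of their libraries, so the overlap is no separate support. In the 24-library fit Npnt had a difference of 1.11 ± 0.15, adjusted p = 0.00317, and Anks1b, a scaffold protein of the synapse, one of 1.37 ± 0.27, adjusted p = 0.0374. Its counts were 239 to 965 (median 362) in restricted tumours, against 129, 151, 205 and 161 in high-methionine tumours. Using the first or the second library of each pair, or treating the pair as a random block, gave 0 calls.

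**Figure D5:**
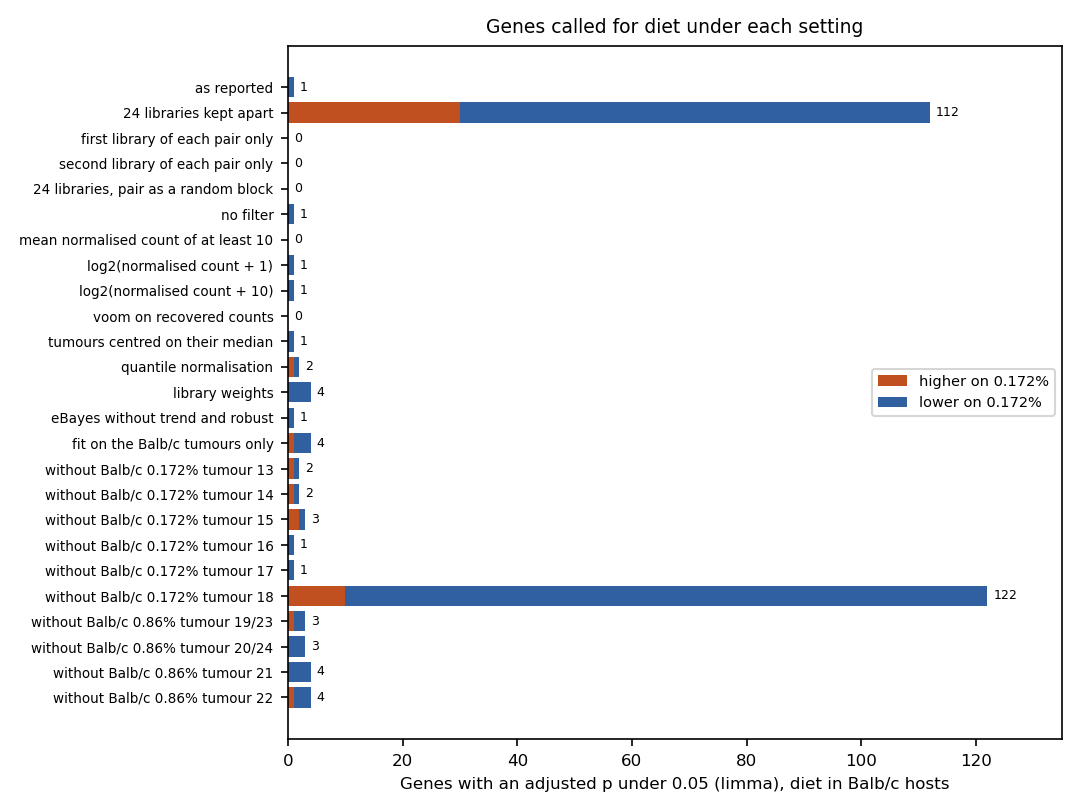
Number of genes called (limma adjusted p under 0.05) for diet in Balb/c hosts under each way of treating the data, split into higher and lower on the restricted diet. Most settings give 0 to 4 genes, while keeping 24 libraries apart gives 112 and leaving out restricted tumour 18 gives 122.

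The same diets in NSG hosts gave other values for several of these genes. For the difference between hosts limma called 0 of 38019 genes (0.0%). Of the 38019 genes, 2447 had an unadjusted p under 0.05, not far above the 1 in 20 that chance alone gives. The genes given here were picked for their values in Balb/c hosts. A gap between hosts is therefore partly set by that choice and is no separate support. Slc22a23 had a difference of 1.05 in Balb/c and -0.50 in NSG hosts, so the effects differed by 1.55 ± 0.27, adjusted p = 0.0987. Ttc33 had 0.40 and -0.32 (0.72 ± 0.12, adjusted p = 0.0987). Arntl had 0.996 and -0.48 (1.47 ± 0.30, adjusted p = 0.265). Npnt had 1.04 and -0.013 (1.05 ± 0.23, adjusted p = 0.292), and Cpt1a -0.60 and -0.083 (-0.52 ± 0.16, adjusted p = 0.513). A p that misses the threshold is no sign of equal responses in both hosts.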

How the data were processed

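RNA-seq of 24 graft libraries was deposited by the authors as 1 table of log2 values per gene, whose shape is that of a DESeq2 variance-stabilised table. Per the submitters' processing notes, STAR, featureCounts, DESeq2 and mm10 were used, with versions, annotation and strand setting not given in the sources used here. Both a stranded ribosomal-depletion kit and poly(A) enrichment are named in the labels, so genes with an overlapping or antisense partner are uncertain. The floor, 4.0711, stands for a count of 0 and holds 51.7% of values. Solving the transformation for the count returned whole numbers, to within 0.01, at 100% of the 640012 values above the floor. These counts gave depth and the normalised counts printed. Of 55228 lines, 26 named by dates were left out.

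Tests used the deposited log2 values: limma 3.58.1 (R 4.3.3), a means model of 4 groups and 22 tumours, eBayes with trend and robust (statmod 1.5.0), Benjamini-Hochberg over 38019 genes. Libraries 19 with 23 and 20 with 24 were averaged. Members and lists were chosen with earlier results of these data known. Genes named are those called, the 8 with the highest and 8 with the lowest moderated t among genes with a mean of at least 50 counts (without predicted models, pseudogenes and receptor segments), the 2 members of each list with the smallest p and a mean of at least 20 counts, the 5 largest changes each way with 24 libraries, and a panel, of which 1 gene is not reported here. Outside this rule, chosen after their values were seen, were Plin2, Pparg, Acaa2, Slc27a1, Sgk1, Klf9, Nr1d1, Prf1, Mitf, Twist1, Wnt10a, Irf4, H2-Aa, C1qa, Slc7a5, Psat1, Phgdh, Ptprc, Spi1, Ccr2, Krt8, Xcr1, Clec9a, Nos3 and the epithelial markers. Alternatives were 24 settings: 24 libraries apart or with the pair as a random block, 1 library per pair, no filter, a mean of at least 10 counts, log2(count + 1), log2(count + 10), voom on the recovered counts, median centring, quantile normalisation, library weights, eBayes without trend and robust, Balb/c tumours alone, and each of 10 tumours left out. Coordinates came from GENCODE release 21 (mm10), which matched 53543 of 55202 names. Python 3.11.15, numpy 2.4.6, pandas 2.3.3 and matplotlib 3.10.9 were used.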

Additional observations from a re-analysis of the deposited data

Results flagged for a closer look

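Single tumours stood far from the others of their group in 19 of 338 checks of a gene or list within a diet (5.62%), and chance alone gives about 1 in 20. Restricted tumour 17 was set apart 6 times. It was low for Gzmb, at 28.4 normalised counts where the other restricted tumours had 694 to 3226, low for Socs1, at 174 where they had 398 to 629.5, and low for Irf1, at 1059 where they had 2566 to 3803. It was high for Mat2a, at 15058, where they had 7830.0 to 9980.1, and for Nr4a1, at 1728, where they had 745 to 995.5. Its mean log2 value over interferon gamma response genes was 9.40, where the others lay between 11.26 and 11.63. Restricted tumour 16 was high for skeletal muscle genes, at 7.12 where the others had 5.06 to 5.22, high for Myh1, at 446 counts where they had 0 to 1.24, and low for neutral amino acid transporters, at 10.05 where they had 10.20 to 10.29. Restricted tumour 18 was high for Rassf4, at 759.6 counts where the others had 407 to 508, and low for Mettl3, at 596 where they had 701 to 732.

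In the high-methionine group, the averaged tumour 19/23 was high for Pparg, at 140.1 counts where the others had 46.3 to 47.6, and for Nos3, at 264 where they had 128 to 143. It was low for Hmgcs1, at 1749 where they had 2182 to 2238, and low for methyltransferases that use S-adenosylmethionine, at 10.70 where they had 10.93 to 10.97. Tumour 20/24 was high for Mat2a, at 12399.5 where the others had 6966 to 7273. Tumour 21 was low for Cpt1a, at 3949 where the others had 4472 to 4543, and high for mt-Co1, at 364409 where they had 311111 to 313891. Tumour 22 was high for C1qa, at 12519 where the others had 9627 to 9933.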

How the results depend on the processing

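The count of genes called for diet in Balb/c hosts was 1, and it was 112 with 24 libraries kept apart, 0 with the first or the second library of each pair, with the pair as a random block, with a mean of at least 10 counts, or with voom, 2 under quantile normalisation, 4 with library weights and 4 with the Balb/c tumours alone. Leaving out 1 tumour gave 1 to 122 genes, with 122 only without tumour 18. No filter, either pseudocount, median centring and eBayes without its options gave 1. The difference between hosts was called for 0 genes, 2 with 24 libraries and 0 to 3 without 1 tumour, and 0 by voom. Over 133 genes and 24 alternatives, 3075 of 3189 values kept their direction and side of the threshold, 52 moved past it, and 6, all of Ighv9-3, moved below it. A change of sign was seen 56 times in 16 genes, none of them called. With 1 tumour left out, the differences lay between -0.31 and 0.94 for Gzmb, -0.40 and 0.25 for Cd79a, -0.072 and 0.074 for Ahcy, -0.18 and 0.092 for Cth, -0.084 and 0.13 for Slc7a11, -0.52 and 0.28 for Cd8a, -0.36 and 0.38 for Cd274, -0.11 and 0.20 for Vegfa, -0.32 and 0.041 for Mki67, -0.0078 and 0.082 for Slc7a5, -0.12 and 0.0065 for Psat1, and -0.079 and 0.067 for Phgdh. Without tumour 19/23 the difference was 0.14 for Cd79a and 0.081 for Cth. Leaving out 1 restricted tumour took Cd79a as low as -0.34, Ahcy to -0.070, Gzmb to -0.23, Cd274 to -0.025 and Vegfa to -0.035, and took Slc7a11 as high as 0.022 and Vegfa to 0.14. Keeping 24 libraries apart gave 0.012 for Cd79a, 0.046 for Ahcy, -0.064 for Slc7a11 and 0.047 for Cd8a. Library weights gave 0.075 for Ccl5, 0.0026 for Cd79a, 0.017 for Hist1h4a, 0.0096 for Psat1, 0.062 for Phgdh and 0.12 for Krt8. Voom gave 0.0098 for Ahcy, 0.045 for Cth and -0.018 for Slc7a11. Slc7a11 had -0.0057 with the first library of each pair, -0.0028 with the random block, -0.013 with median centring and -0.0038 under quantile normalisation, where mt-Co1 had -0.064. Gzmb had -0.024 on log2(count + 1). The cause was not tested. The list of neutral amino acid transporters had a median of -0.055, and 0.052 with voom. It was 0.027 without tumour 19/23 and -0.13 without tumour 20/24. No paired analysis was possible because the library numbers 1 to 24 are not shared between groups. With 4 high-methionine tumours, differences of genes that vary between tumours, such as Gzmb, were not resolved, and genes with few counts are compressed on the deposited scale.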

Other observations

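Genes of other tissues near a graft and of other leukocytes were also read. Of 13 skeletal muscle genes 12 had positive differences on the restricted diet, and Myh1, a fast myosin heavy chain, had 0, 1.24, 0, 446, 0 and 0.98 normalised counts in restricted tumours 13 to 18, against 0.44, 0.9, 0 and 0 in high-methionine tumours, so a single tumour carried it. Mylpf, a fast myosin light chain, averaged 60.3 ± 56 restricted and 35 ± 9.88 high-methionine counts (0.33 ± 0.38, and 0.058 without tumour 16) (SD, n = 6 and 4; log2 difference ± standard error). Of 9 mast cell genes 5 had a positive and 4 a negative difference, and 0 had an unadjusted p under 0.05 in limma. Their median of 0.23 was -0.042 without tumour 20/24 and 0.39 without tumour 18. Tpsab1, a tryptase of mast cells, had 1634, 293, 1069, 869.7, 715 and 302 counts in restricted tumours 13 to 18, against 361, 231, 411 and 705 in high-methionine tumours (0.74 ± 0.41, adjusted p = 0.742). Fcer1a, a subunit of the IgE receptor of mast cells, averaged 29.2 ± 18.1 restricted and 17.2 ± 9.56 high-methionine counts (0.33 ± 0.25, and 0.16 without tumour 20/24 and 0.51 without tumour 18), and Krt10, a keratin of skin, 117 ± 19.9 restricted and 101 ± 25.5 high-methionine counts (0.18 ± 0.14, and 0.057 without tumour 21 and 0.28 without tumour 20/24). The 8 keratinocyte genes, Krt10 among them, had 4 positive and 4 negative differences. Their median of -0.05 was 0.04 without tumour 22 and -0.10 without tumour 21. Of 11 neutrophil genes 8 had a negative difference, and their median of -0.24 was 0.17 without tumour 19/23. Csf3r, the neutrophil growth factor receptor, had 145 to 351 (median 209) counts in restricted tumours, against 1049.6, 233, 289 and 371 in high-methionine tumours. Lcn2, an iron-scavenging protein of neutrophils and epithelium, had 298 to 479.7 (median 378) counts in restricted tumours. The high-methionine tumours had 599, 63, 149 and 227 counts of Lcn2. Tcf7, a factor of naive and memory-like T cells, had 234, 287, 29.2, 128, 609 and 99.4 counts in restricted tumours 13 to 18, against 68.9, 99.9, 54 and 87.3 in high-methionine tumours, highest in the tumour that was lowest for Gzmb. Hmox1, which degrades haem, had 2702 to 5633 (median 3442) counts in restricted tumours, against 32807, 2149, 7799 and 4651 in high-methionine tumours, and tumour 19/23, also the highest for Hbb-bs (13033 counts), was its extreme. The adjusted p of these genes in limma was between 0.447 and 0.901.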
